A study of Mus musculus with 12 samples.

Results

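RAW264.7, a mouse macrophage line that divides in culture, was profiled by poly(A) RNA sequencing in 4 groups of 3 libraries, and 59 genes of mitosis and the spindle are described here. The members are a named list of genes for the machinery that condenses, attaches, aligns and separates chromosomes and then splits the cell. All 59 are in the deposited table of 18190 genes, and all 59 reached 1 FPKM (fragments of a transcript per unit of its length and per unit of sequencing depth) in at least 3 of the 12 libraries, the filter that left 11052 genes to test. The groups were shDCLK1 cells with LPS, control cells with LPS, untreated shDCLK1 cells and untreated control cells. The shDCLK1 cells stably carry an shRNA directed at Dclk1, which encodes doublecortin-like kinase 1, while the control cells have a negative control shRNA. Each line is monoclonal, so a difference between the lines and a difference between 2 clones cannot be told apart. LPS (lipopolysaccharide, a component of bacterial outer membranes that signals through TLR4) was given at 500 ng/ml for 6 h to cells plated at 200000 per well. The labels do not say whether the 3 libraries of a group came from separate cultures, so a p-value measures the spread between these libraries, which may be technical.

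Entry into mitosis is driven by Cdk1 bound to A-type and B-type cyclins, and by the Cdc25 phosphatases that activate it. Condensins and topoisomerase II compact the chromosomes, kinetochores built on the centromere attach them to microtubules, and kinesins and microtubule-bundling proteins shape the spindle. The spindle checkpoint holds the anaphase-promoting complex until attachment is complete, after which separase is freed and a central spindle organises cytokinesis. Most of these genes are transcribed in late S phase, G2 and mitosis, when the DREAM repressor complex has given way to B-MYB and FOXM1, and their messages are low in cells that have left the cycle. In a dividing macrophage line their levels are therefore often read as a sign of proliferation, which was not measured here. LPS is known to slow the proliferation of RAW264.7 cells, and the part of this in the values below was not tested.

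Within groups, Pearson's r between libraries was 0.993 to 0.996 on the log2 scale. Relative depths read from the FPKM steps of 120 genes lay between 0.973 and 1.01, a selection that favours equal depths, and read totals are not given. Dclk1 and its relative Dclk2 summed to at most 0.04 FPKM in any library, so the knockdown could not be checked and the lines rest on their labels. All 8 macrophage markers were expressed (summed 1586 to 1880 FPKM in shDCLK1 cells and 903 to 960.3 FPKM in control cells, with LPS and untreated pooled), while the 4 fibroblast and 4 epithelial markers stayed under 1 FPKM in each library. Of 6 lymphocyte markers 5, and of 4 granulocyte markers 3, did so too. The first library of untreated shDCLK1 cells stood apart in 1 respect: it was low for long transcripts. The log2 difference between this library and the other 2 of its group correlated with the length of the longest annotated transcript at Spearman's rho = -0.60 over the 59 members and -0.45 over 10334 tested genes. Over the members the same measure was -0.08 in untreated control cells, 0.08 in shDCLK1 cells with LPS and 0.04 in control cells with LPS. Over the 10334 tested genes it was 0.20 in untreated control cells, 0.02 in shDCLK1 cells with LPS and 0.21 in control cells with LPS. Single members were low in the first library of untreated control cells too. There the log2 difference was -0.45 for Smc4 (4316 bases), -0.34 for Cenpf, -0.31 for Cenpe and -0.29 for Kif20b. In untreated shDCLK1 cells it was -0.27, -0.41, -0.45 and -0.39 for these genes. The 6 members with a transcript of 6000 bases or more, and Kif20b, are therefore also given without the first libraries where the lines are compared, and the part of length in their values was not tested. Smc4 is below that length, and its values without the first libraries are not given.

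The promoters of the members that LPS lowered most and least, and of the Cdk1 and cyclin B1 pair, show what letters the genes share upstream. Of the 59 members, 49 have an entry in the RefSeq promoter table (GRCm38.p6), with 54 windows that run from 250 bases before to 50 bases after a transcription start. A pair of motifs known from cell cycle promoters was searched on both strands: the CHR, TTTGAA, and the CCAAT box, CCAAT. Matches of one overlapped a match of the other in 2 of the members' 54 windows and in 14 of 11039 windows of tested genes, and both were counted. The lines below run 5′ to 3′ on the gene's strand, with each motif match in capitals (TTTGAA or TTCAAA for the CHR, CCAAT or ATTGG for the CCAAT box). Birc5 (chr11:117848987-117849286, plus strand) and Ccnb2 (chr9:70421505-70421804, minus strand) had the lowest mean log2 change with LPS over both lines among members in the table. That scale understates changes of low genes, and by the percent of the untreated level left other members fell further than Ccnb2. Ttk, for example, kept 8.56% in shDCLK1 cells and 2.09% in control cells, and Ccnb2 kept 9.22% and 3.54%. Pttg1 (chr11:43425932-43426231, minus strand) and Bub3 (chr7:131560120-131560419, plus strand, the first of its 2 windows) had the highest. Ccnb1 (chr13:100786437-100786736, minus strand) and Cdk1 (chr10:69352863-69353162, minus strand) encode cyclin B1 and the kinase it activates to start mitosis.
Birc5: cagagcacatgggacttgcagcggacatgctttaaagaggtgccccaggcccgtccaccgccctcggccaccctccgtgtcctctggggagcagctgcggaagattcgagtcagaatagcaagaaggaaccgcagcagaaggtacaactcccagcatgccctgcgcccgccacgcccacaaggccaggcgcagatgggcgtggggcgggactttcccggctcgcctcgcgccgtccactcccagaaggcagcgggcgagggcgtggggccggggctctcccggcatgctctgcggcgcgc
Ccnb2: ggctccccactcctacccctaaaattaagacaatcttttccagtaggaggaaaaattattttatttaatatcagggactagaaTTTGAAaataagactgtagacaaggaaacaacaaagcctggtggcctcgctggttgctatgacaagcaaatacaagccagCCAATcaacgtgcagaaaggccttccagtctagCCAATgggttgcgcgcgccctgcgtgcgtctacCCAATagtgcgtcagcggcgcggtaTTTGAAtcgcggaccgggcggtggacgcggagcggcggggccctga
Pttg1: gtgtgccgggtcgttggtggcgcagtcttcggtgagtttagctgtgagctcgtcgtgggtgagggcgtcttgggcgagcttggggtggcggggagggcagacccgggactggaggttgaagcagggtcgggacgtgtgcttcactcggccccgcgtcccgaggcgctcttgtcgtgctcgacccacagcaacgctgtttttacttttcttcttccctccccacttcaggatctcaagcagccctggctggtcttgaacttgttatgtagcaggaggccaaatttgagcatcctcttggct
Bub3: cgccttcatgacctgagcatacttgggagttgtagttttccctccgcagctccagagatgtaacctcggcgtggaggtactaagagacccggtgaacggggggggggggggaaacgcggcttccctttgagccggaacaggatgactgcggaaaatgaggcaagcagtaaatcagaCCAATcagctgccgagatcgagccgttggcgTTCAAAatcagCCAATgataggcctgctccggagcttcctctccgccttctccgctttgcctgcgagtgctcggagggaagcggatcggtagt
Ccnb1: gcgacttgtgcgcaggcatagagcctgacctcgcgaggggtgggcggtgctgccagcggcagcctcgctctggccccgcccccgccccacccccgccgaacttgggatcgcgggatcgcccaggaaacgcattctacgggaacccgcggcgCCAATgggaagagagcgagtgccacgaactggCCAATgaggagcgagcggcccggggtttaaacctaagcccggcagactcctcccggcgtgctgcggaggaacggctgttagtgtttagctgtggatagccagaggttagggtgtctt
Cdk1: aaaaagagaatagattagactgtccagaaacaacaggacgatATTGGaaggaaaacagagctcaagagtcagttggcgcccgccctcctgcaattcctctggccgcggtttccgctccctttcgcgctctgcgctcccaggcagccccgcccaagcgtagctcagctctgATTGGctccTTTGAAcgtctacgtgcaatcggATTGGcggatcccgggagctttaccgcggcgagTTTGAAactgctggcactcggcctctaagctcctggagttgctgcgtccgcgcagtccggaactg

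The Ccnb2 window held 2 CHR matches, 1 of them 4 bases past the start, below 3 CCAAT boxes at 21, 54 and 87 bases before it. Cdk1 held the same number of each, with its CHR matches 15 and 71 bases before the start. Bub3 also held a CHR, 43 bases before the start, with 2 CCAAT boxes beside it, although its transcript was the one LPS lowered least. Birc5 and Pttg1, which stand near opposite ends of the LPS response, held neither motif in these windows. Over all members 66.7% of 54 windows held a CHR, against 12.3% of the 11039 windows of tested genes (members included) and 17.9% of all 32851 windows in the table. Within 50 bases of the start the shares were 59.3% of the members' windows, 3.21% of those of tested genes and 4.94% of all. A CCAAT box stood in 75.9% of the members' windows, 38.7% of those of tested genes and 37.4% of all, and both motifs together in 57.4%, 5.12% and 6.95%, in the same order. The 33 members with a CHR kept a median of 10.5% of their untreated level with LPS in shDCLK1 cells and 4.41% in control cells, and the 16 without one kept 12.4% in shDCLK1 cells and 5.32% in control cells. No test was made of these shares, a match is a run of letters and not a binding site, and Ccna2, Cdc25c, Fam64a, Pbk, Aurkb, Incenp, Spc24, Kif20a, Tpx2 and Smc4 are not in the table.

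**Figure D1:**
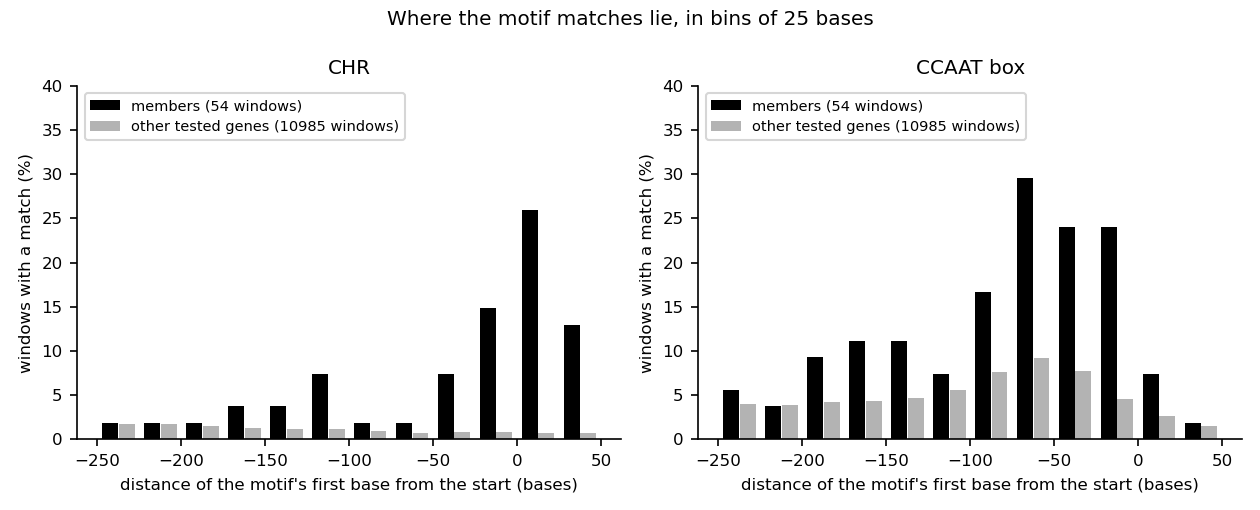
Share of promoter windows (%) with the first base of a CHR (left) or CCAAT box (right) match in each bin of 25 bases, by distance from the transcription start, for the 54 windows of members (black) and 10985 windows of other tested genes (grey). The members' CHR matches gather within 50 bases of the start and their CCAAT boxes in the 100 bases before it.

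The first question was what LPS did to the mitotic genes in each line. After 6 h all 59 members were lower in shDCLK1 cells and all 59 were lower in control cells, and none was higher in either line. Calls are from limma, a linear model fitted across all tested genes on log2(FPKM + 1), at a Benjamini-Hochberg adjusted p under 0.05, and changes in log2 units are on that scale, which understates those of low genes. In shDCLK1 cells 59.7% of all 11052 tested genes were called lower and 24.9% higher, and in control cells 62.1% lower and 24.8% higher. The excess of lower calls among all genes depended on the scaling: with median-of-ratios factors 40.8% were lower and 41.8% higher in shDCLK1 cells, and 42.3% lower and 43.1% higher in control cells, with 59 of 59 members still lower in each line. The median log2 change of the members was -2.82 in shDCLK1 cells (range -3.82 to -0.59) and -3.76 in control cells (range -4.98 to -0.71), against medians of -0.29 and -0.38 over all tested genes. The 3 libraries with LPS lay below the 3 untreated ones for 59 of 59 members in both lines, as for 59.7% of all tested genes in shDCLK1 cells and 62.5% in control cells. Summed over the members, FPKM came to 342 to 373 with LPS and 2311 to 2348 untreated in shDCLK1 cells, and to 223 to 224 with LPS and 2626 to 2682 untreated in control cells. As a share of all FPKM this was 0.0732% ± 0.00281 with LPS and 0.504% ± 0.0120 untreated in shDCLK1 cells, and 0.0453% ± 0.000460 with LPS and 0.567% ± 0.00470 untreated in control cells (SD, n = 3). In RNA from whole cultures, fewer cells in mitosis and less of each message per cell cannot be told apart. FPKM are relative to all mapped fragments: median-of-ratios scaling put the median of all genes at 0.01 in shDCLK1 cells and 0.00 in control cells, and the members' median at -2.52 in shDCLK1 cells and -3.46 in control cells.

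**Figure D2:**
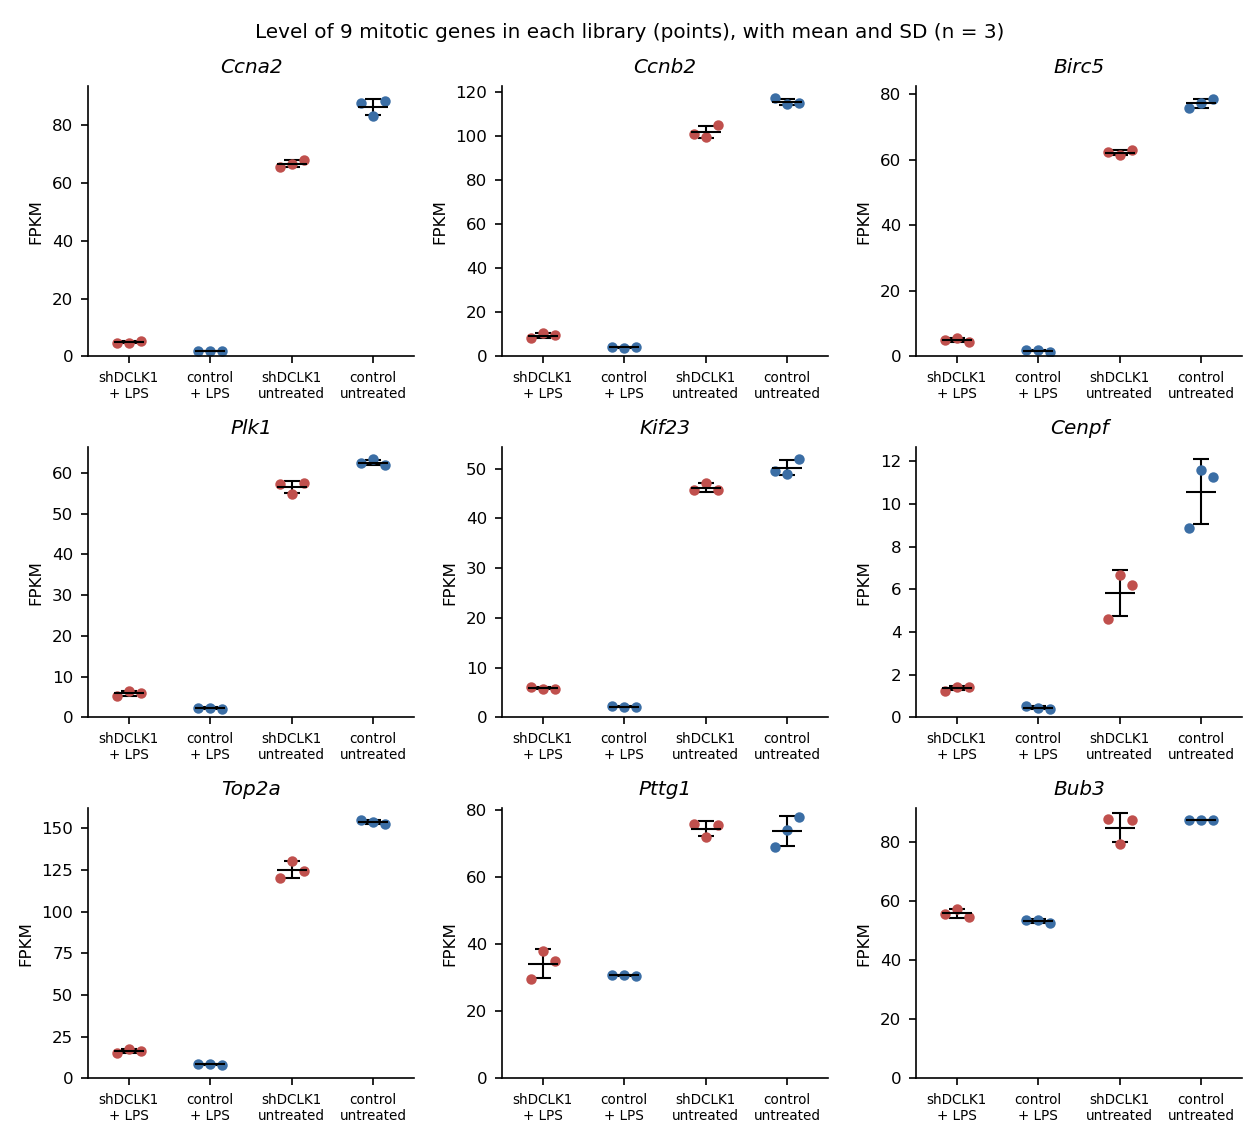
Level in FPKM of 9 mitotic genes in each library (points) with the mean and SD of each group (n = 3), from left to right shDCLK1 with LPS, control with LPS, shDCLK1 untreated and control untreated. In 7 of the panels the LPS groups sit near the axis with shDCLK1 above control, while Pttg1 and Bub3 kept a large part of their level and their LPS groups lie close together.

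How much message was left is given as the mean FPKM with LPS as a percent of the untreated mean of the same line (± SD of the 3 LPS libraries). The members kept a median of 11.7% in shDCLK1 cells and 4.48% in control cells. Of the 59, 21 kept under 10% in shDCLK1 cells and 50 did in control cells, while 1 in shDCLK1 cells and 32 in control cells kept under 5%. Among the 8207 genes with at least 5 FPKM untreated in both lines, a floor that all 59 members pass, the medians were 78.1% in shDCLK1 cells and 72.9% in control cells, and 84 genes in shDCLK1 cells and 242 in control cells kept under 10%. The lowest and the highest member were the same in both lines. Fam64a kept 4.44% ± 0.313 in shDCLK1 cells and 1.62% ± 0.28 in control cells, and Bub3 kept 65.8% ± 1.74 in shDCLK1 cells and 60.9% ± 0.618 in control cells. Across the 59 members the percentages of both lines went together (Spearman's rho = 0.90, a description over genes of the same libraries), and in control cells the percentage had no such relation to the untreated level (rho = 0.03).

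**Figure D3:**
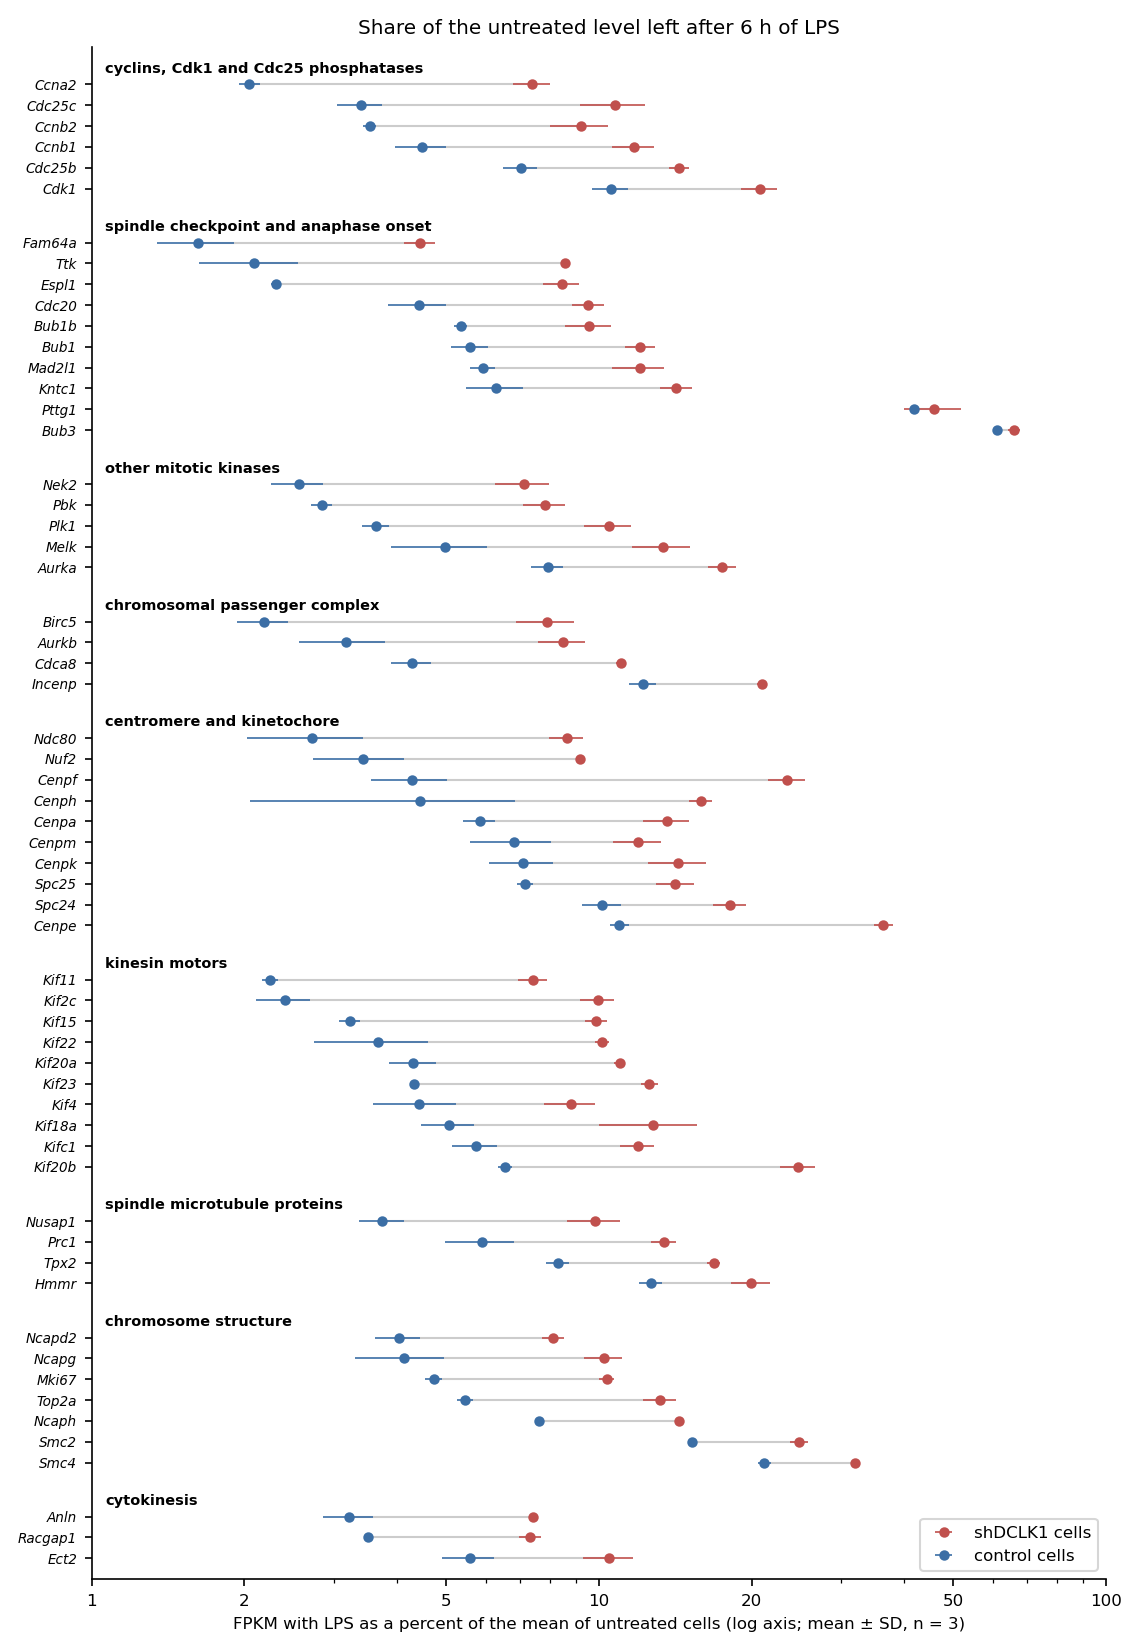
Percent of the untreated level left after 6 h of LPS for all 59 members by role, on a log axis, as the mean FPKM with LPS over the untreated mean (bars, SD of 3 LPS libraries), in shDCLK1 cells (red) and control cells (blue). The red point lies to the right of the blue one for each member, by least for Pttg1 and Bub3.

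The cyclins, Cdk1 and its activating phosphatases fell in all 6 cases. Ccna2 (Entrez Gene 12428), cyclin A2, which drives S phase and mitotic entry, had 4.74, 4.64 and 5.4 FPKM with LPS, against 65.6, 66.4 and 68 FPKM untreated, in shDCLK1 cells. In control cells Ccna2 had 1.81, 1.82 and 1.67 FPKM with LPS, against 87.7, 83.2 and 88.3 FPKM untreated. Both LPS groups lay far below their untreated libraries without overlap, and the change was -3.52 log2 units (SE 0.0478, adjusted p = 4.47e-15) in shDCLK1 cells and -4.98 log2 units (SE 0.0478, adjusted p = 1.12e-16) in control cells. The latter was the deepest of any member there on the log2(FPKM + 1) scale, although Fam64a kept a smaller percent of its untreated level. Ccnb2 (Entrez Gene 12442), cyclin B2, the most abundant of the 6, had 8.12, 10.5 and 9.46 FPKM with LPS, against 101, 99.5 and 105 FPKM untreated, in shDCLK1 cells. In control cells Ccnb2 had 4.14, 3.94 and 4.16 FPKM with LPS, against 117, 114 and 115 FPKM untreated. Its change was -3.31 log2 units (SE 0.0641, adjusted p = 7.71e-14) in shDCLK1 cells and -4.52 log2 units (SE 0.0641, adjusted p = 2.33e-15) in control cells. Cdk1, the mitotic kinase itself, was left at 20.8% ± 1.71 in shDCLK1 cells and 10.5% ± 0.848 in control cells, the most of the 6. Its cyclin Ccnb1 kept 11.7% in shDCLK1 cells and 4.48% in control cells, Cdc25b 14.4% in shDCLK1 cells and 7.02% in control cells, and Cdc25c 10.8% in shDCLK1 cells and 3.4% in control cells.

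The 10 genes of the spindle checkpoint and anaphase onset held both ends of the range. Bub3 (Entrez Gene 12237), a WD-repeat protein that brings Bub1 and BubR1 to the kinetochore, had 55.6, 57.5 and 54.6 FPKM with LPS, against 87.8, 79.4 and 87.7 FPKM untreated, in shDCLK1 cells. In control cells Bub3 had 53.7, 53.6 and 52.7 FPKM with LPS, against 87.7, 87.5 and 87.5 FPKM untreated. Its groups did not overlap in either line, yet the change was small, at -0.59 log2 units (SE 0.0369, adjusted p = 6.58e-09) in shDCLK1 cells and -0.71 log2 units (SE 0.0369, adjusted p = 8.61e-10) in control cells. Pttg1 (Entrez Gene 30939), securin, which inhibits separase until anaphase, had 29.5, 38.1 and 34.8 FPKM with LPS, against 75.9, 71.8 and 75.6 FPKM untreated, in shDCLK1 cells. In control cells Pttg1 had 30.9, 30.8 and 30.6 FPKM with LPS, against 69, 73.9 and 77.9 FPKM untreated. This was the second smallest fall, -1.11 log2 units (SE 0.0724, adjusted p = 1.05e-08) in shDCLK1 cells and -1.23 log2 units (SE 0.0724, adjusted p = 2.87e-09) in control cells. Fam64a (Entrez Gene 109212), a substrate of the anaphase-promoting complex in human cells, had 1.52, 1.68 and 1.47 FPKM with LPS, against 35, 36.4 and 33.8 FPKM untreated, in shDCLK1 cells. In control cells Fam64a had 0.66, 0.47 and 0.54 FPKM with LPS, against 33.7, 35.8 and 33.4 FPKM untreated. It changed by -3.82 log2 units (SE 0.0539, adjusted p = 5.64e-15) in shDCLK1 cells, the deepest of any member in that line, and by -4.50 log2 units (SE 0.0539, adjusted p = 5.83e-16) in control cells. The binding partners of Bub3 and Pttg1 kept less. Of the checkpoint kinases that bind Bub3, Bub1 kept 12.1% in shDCLK1 cells and 5.57% in control cells. Bub1b (BubR1) kept 9.56% in shDCLK1 cells and 5.34% in control cells. Espl1, the separase that securin holds, kept 8.44% in shDCLK1 cells and 2.3% in control cells. Ttk, the Mps1 kinase at the head of the checkpoint, kept 8.56% in shDCLK1 cells and 2.09% in control cells. The checkpoint protein Mad2l1, the Rod subunit Kntc1 and the activator of the anaphase-promoting complex Cdc20 kept between 9.54% (Cdc20) and 14.2% (Kntc1) in shDCLK1 cells, and between 4.42% and 6.28% in control cells.

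Among the other mitotic kinases all 5 fell. Plk1 (Entrez Gene 18817), Polo-like kinase 1, which acts from mitotic entry to cytokinesis, had 5.25, 6.49 and 6 FPKM with LPS, against 57.3, 54.8 and 57.5 FPKM untreated, in shDCLK1 cells. In control cells Plk1 had 2.38, 2.32 and 2.11 FPKM with LPS, against 62.3, 63.3 and 61.9 FPKM untreated. The change was -3.06 log2 units (SE 0.057, adjusted p = 5.53e-14) in shDCLK1 cells and -4.28 log2 units (SE 0.057, adjusted p = 1.36e-15) in control cells, with no overlap in either line. Nek2, a centrosome kinase, kept 7.11% in shDCLK1 cells and 2.56% in control cells. Aurka (Aurora A), which acts at spindle poles, kept 17.5% in shDCLK1 cells and 7.92% in control cells, the most of the 5, and the kinases Melk and Pbk lay between. All 4 subunits of the chromosomal passenger complex, which corrects faulty attachments, fell as well. Birc5 (Entrez Gene 11799), survivin, which takes the complex to centromeres, had 4.87, 5.57 and 4.3 FPKM with LPS, against 62.4, 61.4 and 63 FPKM untreated, in shDCLK1 cells. In control cells Birc5 had 1.78, 1.82 and 1.47 FPKM with LPS, against 75.9, 77.5 and 78.7 FPKM untreated. Its change was -3.42 log2 units (SE 0.0685, adjusted p = 1.04e-13) in shDCLK1 cells and -4.87 log2 units (SE 0.0685, adjusted p = 2.14e-15) in control cells, next to that of Ccna2. Incenp (Entrez Gene 16319), the scaffold of the complex and its most abundant message over the 12 libraries, had 14.1, 14.3 and 13.7 FPKM with LPS, against 68.4, 66.5 and 65.9 FPKM untreated, in shDCLK1 cells. In control cells Incenp had 11.2, 10.03 and 11 FPKM with LPS, against 85, 93.1 and 86.3 FPKM untreated. Its fall was smaller, -2.18 log2 units (SE 0.0445, adjusted p = 1.27e-13) in shDCLK1 cells and -2.92 log2 units (SE 0.0445, adjusted p = 4.16e-15) in control cells. Aurkb (Aurora B), the kinase of the complex, kept 8.48% in shDCLK1 cells and 3.18% in control cells, and Cdca8 (borealin) kept 11.1% in shDCLK1 cells and 4.29% in control cells.

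All 10 centromere and kinetochore genes fell. Cenpa (Entrez Gene 12615), the histone H3 variant that marks centromeres, had 9.29, 11 and 9.11 FPKM with LPS, against 75.6, 69.4 and 70.5 FPKM untreated, in shDCLK1 cells. In control cells Cenpa had 4.68, 5.12 and 5.41 FPKM with LPS, against 87.1, 86.9 and 87 FPKM untreated. It changed by -2.76 log2 units (SE 0.0623, adjusted p = 3.26e-13) in shDCLK1 cells and -3.86 log2 units (SE 0.0623, adjusted p = 7.33e-15) in control cells. Ndc80 (Entrez Gene 67052), which binds microtubules in the outer kinetochore, had 2.03, 1.77 and 1.79 FPKM with LPS, against 21.5, 22.4 and 20.8 FPKM untreated, in shDCLK1 cells. In control cells Ndc80 had 0.59, 0.64 and 0.38 FPKM with LPS, against 19.3, 19.2 and 20.6 FPKM untreated. Its change was -2.98 log2 units (SE 0.0658, adjusted p = 2.64e-13) in shDCLK1 cells and -3.76 log2 units (SE 0.0658, adjusted p = 1.62e-14) in control cells. The other subunits of the Ndc80 complex kept more: Nuf2 kept 9.19% in shDCLK1 cells and 3.42% in control cells, Spc25 kept 14.2% in shDCLK1 cells and 7.15% in control cells, and Spc24 kept 18.2% in shDCLK1 cells and 10.2% in control cells. Cenpe (Entrez Gene 229841), a kinesin that moves chromosomes to the spindle equator, had 3.76, 3.46 and 3.54 FPKM with LPS, against 7.73, 11.3 and 10.5 FPKM untreated, in shDCLK1 cells. In control cells Cenpe had 1.66, 1.53 and 1.56 FPKM with LPS, against 12.3, 16 and 15 FPKM untreated. Cenpf (Entrez Gene 108000), a large kinetochore protein, had 1.24, 1.43 and 1.44 FPKM with LPS, against 4.59, 6.69 and 6.2 FPKM untreated, in shDCLK1 cells. In control cells Cenpf had 0.54, 0.43 and 0.39 FPKM with LPS, against 8.85, 11.6 and 11.3 FPKM untreated. For both, the first untreated library was the lowest of its group in either line, and the LPS libraries still lay below it. Their change was -1.23 log2 units (SE 0.115, adjusted p = 4.07e-07) for Cenpe and -1.51 log2 units (SE 0.117, adjusted p = 6.12e-08) for Cenpf in shDCLK1 cells, and -2.57 log2 units (SE 0.115, adjusted p = 1.68e-10) and -2.99 log2 units (SE 0.117, adjusted p = 4.57e-11) in control cells. Cenpk (Entrez Gene 60411), of the constitutive centromere network, was low throughout and had 1.01, 0.78 and 0.95 FPKM with LPS, against 7.12, 6.37 and 5.6 FPKM untreated, in shDCLK1 cells. In control cells Cenpk had 0.49, 0.65 and 0.55 FPKM with LPS, against 7.35, 8.25 and 8.23 FPKM untreated. Its change was -1.94 log2 units (SE 0.0822, adjusted p = 1.38e-10) in shDCLK1 cells and -2.52 log2 units (SE 0.0822, adjusted p = 7.01e-12) in control cells. Cenph and Cenpm, of the same network, kept 15.9% and 11.9% in shDCLK1 cells and 4.44% and 6.81% in control cells.

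The 10 kinesin motors fell to a median of 10.6% of their untreated level in shDCLK1 cells and 4.32% in control cells. Kif23 (Entrez Gene 71819), the MKLP1 motor of the central spindle, had 6.06, 5.69 and 5.68 FPKM with LPS, against 45.6, 47.2 and 45.8 FPKM untreated, in shDCLK1 cells. In control cells Kif23 had 2.22, 2.15 and 2.14 FPKM with LPS, against 49.6, 49 and 51.8 FPKM untreated. Its change was -2.79 log2 units (SE 0.0356, adjusted p = 3.05e-15) in shDCLK1 cells and -4.01 log2 units (SE 0.0356, adjusted p = 6.51e-17) in control cells. Kif11 (Eg5), which pushes spindle poles apart, was left at 7.41% ± 0.495 in shDCLK1 cells and 2.25% ± 0.078 in control cells, the least of the motors in both lines. Kif20b (Entrez Gene 240641), a motor of late mitosis, had 1.72, 2.01 and 1.82 FPKM with LPS, against 6.03, 8.67 and 7.75 FPKM untreated, in shDCLK1 cells. In control cells Kif20b had 0.87, 0.84 and 0.82 FPKM with LPS, against 11.1, 13.6 and 14.1 FPKM untreated. It changed by -1.56 log2 units (SE 0.107, adjusted p = 1.78e-08) in shDCLK1 cells and -2.91 log2 units (SE 0.107, adjusted p = 2.36e-11) in control cells. Among these 10 motors, a list without Cenpe, it kept the most, 24.7% ± 1.97 in shDCLK1 cells and 6.53% ± 0.195 in control cells. Kif4 (Entrez Gene 16571), a chromosome-bound motor, had 1.42, 1.6 and 1.27 FPKM with LPS, against 15.6, 16.6 and 16.6 FPKM untreated, in shDCLK1 cells. In control cells Kif4 had 0.71, 0.6 and 0.87 FPKM with LPS, against 16.5, 16.4 and 16.5 FPKM untreated. It changed by -2.83 log2 units (SE 0.0639, adjusted p = 3.27e-13) in shDCLK1 cells and -3.34 log2 units (SE 0.0639, adjusted p = 3.64e-14) in control cells. The others were Kif15, which supports the bipolar spindle, Kif18a, which limits chromosome oscillation, Kif20a of the central spindle, Kif22, a chromosome motor, Kif2c, a microtubule depolymerase, and the minus-end motor Kifc1. They kept 9.88% (Kif15) to 12.8% (Kif18a) in shDCLK1 cells and 2.4% (Kif2c) to 5.72% (Kifc1) in control cells.

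Spindle microtubule, chromosome structure and cytokinesis genes went the same way, 14 of 14. Tpx2 (Entrez Gene 72119), which activates Aurora A on spindle microtubules, had 7.98, 8.43 and 8.35 FPKM with LPS, against 47.9, 50.6 and 48.4 FPKM untreated, in shDCLK1 cells. In control cells Tpx2 had 4.19, 4.47 and 4.64 FPKM with LPS, against 52, 53.3 and 55.1 FPKM untreated. Its change was -2.43 log2 units (SE 0.0399, adjusted p = 2.00e-14) in shDCLK1 cells and -3.33 log2 units (SE 0.0399, adjusted p = 6.01e-16) in control cells. Nusap1 and Prc1, which bundle microtubules, and Hmmr, a spindle-pole protein, kept 9.82%, 13.4% and 19.99% in shDCLK1 cells and 3.74%, 5.88% and 12.6% in control cells. Top2a (Entrez Gene 21973), topoisomerase II alpha, which untangles sister chromatids, was the most abundant member untreated and had 15.4, 17.8 and 16.3 FPKM with LPS, against 121, 131 and 124 FPKM untreated, in shDCLK1 cells. In control cells Top2a had 8.32, 8.7 and 8.12 FPKM with LPS, against 155, 154 and 153 FPKM untreated. It changed by -2.85 log2 units (SE 0.047, adjusted p = 2.05e-14) in shDCLK1 cells and -4.04 log2 units (SE 0.047, adjusted p = 4.46e-16) in control cells. The condensin subunits differed in what they kept. Smc4 (Entrez Gene 70099), an ATPase subunit shared by both condensins, had 15.4, 16 and 15.9 FPKM with LPS, against 43, 57.4 and 47.4 FPKM untreated, in shDCLK1 cells. In control cells Smc4 had 11.7, 12.3 and 11.7 FPKM with LPS, against 45, 64.7 and 58.6 FPKM untreated. It changed by -1.57 log2 units (SE 0.116, adjusted p = 3.64e-08) in shDCLK1 cells and -2.13 log2 units (SE 0.116, adjusted p = 1.29e-09) in control cells. Smc4 kept 32% ± 0.621 in shDCLK1 cells and 21.2% ± 0.613 in control cells, and its partner Smc2 24.8% ± 1.04 in shDCLK1 cells and 15.3% ± 0.156 in control cells. The condensin I subunits Ncapd2, Ncapg and Ncaph kept 8.13%, 10.2% and 14.4% in shDCLK1 cells and 4.03%, 4.13% and 7.62% in control cells. Mki67, the proliferation antigen Ki-67 that coats mitotic chromosomes, kept 10.4% in shDCLK1 cells and 4.73% in control cells. Racgap1 (Entrez Gene 26934), which pairs with Kif23 in centralspindlin, had 2.94, 3.22 and 3.19 FPKM with LPS, against 43.2, 41.4 and 43 FPKM untreated, in shDCLK1 cells. In control cells Racgap1 had 1.64, 1.65 and 1.65 FPKM with LPS, against 47.5, 46.3 and 46.9 FPKM untreated. Its change was -3.40 log2 units (SE 0.036, adjusted p = 7.81e-16) in shDCLK1 cells and -4.18 log2 units (SE 0.036, adjusted p = 5.49e-17) in control cells. Ect2, the exchange factor that Racgap1 recruits, and the contractile ring protein Anln kept 10.5% and 7.4% in shDCLK1 cells and 5.56% and 3.22% in control cells.

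The next question was whether the mitotic genes differed between the lines before LPS. In untreated cells 33 of 59 members were lower in shDCLK1 than in control cells, 0 were higher and 26 were not called, where 23.6% of all tested genes were called lower and 21.4% higher. At an unadjusted p under 0.05 in limma, 37 members were lower and 0 higher, and without the first library of all groups 25 were called lower and 0 higher. The differences were small: untreated shDCLK1 cells held a median of 87.8% of the control level, from 55.1% for Cenpf to 109% for Ndc80, and the median log2 difference was -0.18 against -0.02 over all tested genes. For 43 of 59 members the 3 shDCLK1 libraries lay below the 3 control libraries, as for 29.2% of all tested genes. By role list, those called lower were 5 of 6 cyclin, Cdk1 and Cdc25 genes, 4 of 10 checkpoint and anaphase genes, 2 of 5 other kinases, 3 of 4 passenger complex genes, 5 of 10 centromere and kinetochore genes, 7 of 10 kinesins, 1 of 4 spindle microtubule genes, 5 of 7 chromosome structure genes and 1 of 3 cytokinesis genes. In lists this short, counts of 1 are near the 23.6% called lower among all tested genes. No role list was tested against that share.

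Cenpf, with 4.59, 6.69 and 6.2 FPKM in untreated shDCLK1 cells against 8.85, 11.6 and 11.3 FPKM in untreated control cells, differed most. Its groups did not overlap, and the difference was -0.77 log2 units (SE 0.117, adjusted p = 2.07e-04), or -0.74 (adjusted p = 0.000104) without the first library of each group. Kif20b, at 6.03, 8.67 and 7.75 FPKM in shDCLK1 cells against 11.1, 13.6 and 14.1 FPKM in control cells, differed by -0.72 log2 units (SE 0.107, adjusted p = 1.68e-04), or -0.69 (adjusted p = 0.000244) without the first libraries. Cenpe, at 7.73, 11.3 and 10.5 FPKM in shDCLK1 cells against 12.3, 16 and 15 FPKM in control cells, differed by -0.51 log2 units (SE 0.115, adjusted p = 0.00301), or -0.47 (adjusted p = 0.000641) without them. The longest annotated transcripts of these 3 genes span 11130, 5564 and 7910 bases, and the first library was the lowest of its group for each in both untreated lines. Mki67 (10061 bases) was at 76.6% of control, with 66, 86.6 and 79.4 FPKM in shDCLK1 cells against 94.2, 108 and 101 FPKM in control cells, and the call held without the first libraries (-0.33, adjusted p = 0.00269). Of the other members over 6000 bases, Espl1 was at 78.1% of control and was called with all libraries (-0.34 log2 units, SE 0.0478, adjusted p = 1.09e-04) and without the first ones (-0.31, adjusted p = 0.0067). Kntc1 and Mad2l1 were called in neither, at -0.09 and -0.15 log2 units with all libraries (adjusted p = 0.247 and 0.0894) and -0.04 and -0.14 without the first ones (adjusted p = 0.701 and 0.116).

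Among members with transcripts shorter than these, Ccna2 (-0.37 log2 units, SE 0.0478, adjusted p = 5.57e-05), Incenp (-0.39 log2 units, SE 0.0445, adjusted p = 1.84e-05), Birc5 (-0.31 log2 units, SE 0.0685, adjusted p = 0.00293), Top2a (-0.30 log2 units, SE 0.047, adjusted p = 2.73e-04) and Cenpa (-0.27 log2 units, SE 0.0623, adjusted p = 0.00343) were lower in untreated shDCLK1 cells without overlap. Bub1b was at 82.4% of the control level and was called. The calls of Racgap1 (-0.14 log2 units, SE 0.036, adjusted p = 0.0078) and of Ccnb2, Kif23 and Tpx2 rest on differences of -0.12 to -0.18. Those of Ccnb2, Kif23 and Tpx2 were lost in several fits that left out 1 untreated library, at adjusted p up to 0.0989, 0.0865 and 0.0918. Cenpk, at 7.12, 6.37 and 5.6 FPKM in shDCLK1 cells against 7.35, 8.25 and 8.23 FPKM in control cells, was called at -0.28 log2 units (SE 0.0822, adjusted p = 0.0139) and lost without the third shDCLK1 library (-0.21, adjusted p = 0.0652). At the other end, Ndc80, Fam64a, Pttg1 and Anln had values above 0, from 0.00 to 0.12, and none was called. Plk1 (-0.14, adjusted p = 0.058), Cdk1 (-0.12, adjusted p = 0.119) and Bub3 (-0.05, adjusted p = 0.345) were not called either.

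**Figure D4:**
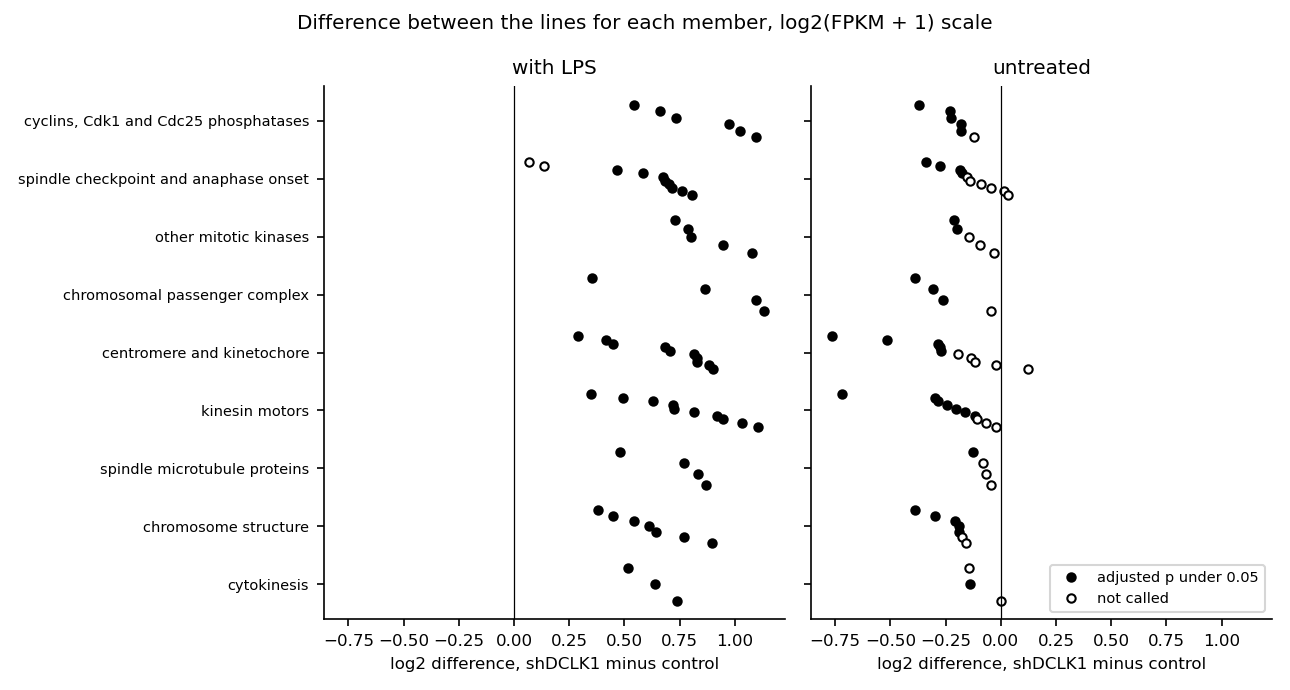
Difference between the lines (shDCLK1 minus control, log2(FPKM + 1) scale) for each member by role, with LPS (left) and untreated (right). Filled points have an adjusted p under 0.05 in limma: 57 of 59 lie above 0 and are called with LPS, and 33 of 59 lie below 0 and are called untreated.

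With LPS the order of the lines was the other way round for the members called lower in untreated shDCLK1 cells. Ndc80, Fam64a, Pttg1 and Anln lay above 0 in both states. Of the 59 members, 57 were higher in shDCLK1 than in control cells, 0 were lower, and Bub3 and Pttg1 were not called, where 34.3% of all tested genes were higher and 14.3% lower. With median-of-ratios scaling 57 members were higher, against 24.3% of all tested genes higher and 24.8% lower, and after quantile normalization 54 members, against 21.3% and 24.8%. The 3 shDCLK1 libraries lay above the 3 control libraries for 58 members, all but Pttg1, as for 38.9% of all tested genes. Without the first library of all groups 56 members were called higher and 0 lower. Those with long transcripts were among the 56, from 0.59 log2 units for Kntc1 (adjusted p = 0.00103) to 0.82 for Cenpe (adjusted p = 3.68e-05). The median log2 difference was 0.73 against 0.07 over all tested genes, and the ratio of mean FPKM had a median of 2.16 against 1.05 among the 8207 genes above the floor. Of the 59 ratios 32 were over 2. They ran from 1.05 for Bub3 to 3.69 for Kif2c, with Ttk at 3.6, Ndc80 at 3.47, Cenph at 3.09 and Cenpf at 3.02. Levels here are low, with a median of 3.71 FPKM in shDCLK1 cells and 1.77 FPKM in control cells, and the pseudocount of 1 makes log2 differences smaller than those of the ratios.

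Birc5 had 4.87, 5.57 and 4.3 FPKM with LPS in shDCLK1 cells, against 1.78, 1.82 and 1.47 FPKM in control cells. That difference of 1.13 log2 units (SE 0.0685, adjusted p = 5.80e-08) was the largest of the members. Kif23 had 6.06, 5.69 and 5.68 FPKM in shDCLK1 cells, against 2.22, 2.15 and 2.14 FPKM in control cells, a difference of 1.10 log2 units (SE 0.0356, adjusted p = 3.32e-10). Ccna2 had 4.74, 4.64 and 5.4 FPKM in shDCLK1 cells, against 1.81, 1.82 and 1.67 FPKM in control cells, a difference of 1.10 log2 units (SE 0.0478, adjusted p = 3.55e-09). In all 3 genes the lowest shDCLK1 library stood well above the highest control library. Cdca8 (1.09), Plk1 (1.08), Kif2c (1.03) and Ccnb2 (1.02) followed. Near the other end were Cenpk (0.29 log2 units, SE 0.0822, adjusted p = 0.0112), Kif18a (0.35 log2 units, SE 0.0889, adjusted p = 0.00614) and Smc4 (0.38 log2 units, SE 0.116, adjusted p = 0.0171). These 3 calls were lost after quantile normalization, at adjusted p = 0.258, 0.124 and 0.0821. Bub3, with 55.6, 57.5 and 54.6 FPKM in shDCLK1 cells against 53.7, 53.6 and 52.7 FPKM in control cells, differed by 0.07 log2 units (SE 0.0369, adjusted p = 0.156), a value that passed the threshold (adjusted p = 0.0473) when the second library of untreated shDCLK1 cells was left out of the fit. Pttg1, with 29.5, 38.1 and 34.8 FPKM in shDCLK1 cells against 30.9, 30.8 and 30.6 FPKM in control cells, differed by 0.14 log2 units (SE 0.0724, adjusted p = 0.138). Its first shDCLK1 library lay below all 3 control libraries, and without that library the difference was 0.24 (adjusted p = 0.00339).

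The last comparison asked whether LPS lowered the mitotic genes by the same amount in both lines. It draws on the same 12 libraries as the comparisons above and is not independent of them. The interaction, the log2 change with LPS in shDCLK1 cells minus that in control cells, was called above 0 for 57 of 59 members and below 0 for none, where 32.6% of all tested genes were above and 16.9% below. After median-of-ratios scaling it was called above 0 for 57 members, with 23% of all tested genes above and 23.7% below. A value above 0 means a smaller fall in shDCLK1 cells. Its median was 0.89 over the members and 0.09 over all tested genes, and all 59 values lay above 0, from 0.11 for Bub3 to 1.47 for Cenpf. At an unadjusted p under 0.05 in limma the counts were again 57 above and 0 below, and without the first library of all groups 58 were called above 0. The interaction was 1.47 log2 units (SE 0.166, adjusted p = 1.51e-05) for Cenpf, 1.47 log2 units (SE 0.0676, adjusted p = 5.88e-09) for Ccna2 and 1.44 log2 units (SE 0.0969, adjusted p = 1.67e-07) for Birc5. Without the first library of all groups the interactions of the members with long transcripts ran from 0.63 for Kntc1 (adjusted p = 0.00379) to 1.53 for Cenpf (adjusted p = 1.68e-05). Among called members Kif4 had the smallest, 0.51 log2 units (SE 0.0904, adjusted p = 5.28e-04). The 2 members not called were Bub3 (0.11 log2 units, SE 0.0522, adjusted p = 0.0937) and Pttg1 (0.12 log2 units, SE 0.102, adjusted p = 0.351), and the interaction of Pttg1 was 0.22 (adjusted p = 0.0223) without the first shDCLK1 library with LPS. The medians by role lay between 0.74 for cytokinesis genes and 1.13 for the passenger complex. The interaction is the difference between the lines with LPS (median 0.73 over the members) minus that in untreated cells (median -0.18). For Cenpf the untreated difference (-0.77) was larger in size than that with LPS (0.71). The same held for Kif20b (-0.72 untreated and 0.63 with LPS) and Incenp (-0.39 and 0.36). For Ndc80, Fam64a, Pttg1 and Anln, which lay above 0 untreated, the untreated difference made the interaction smaller. Macrophage marker levels also differed between the lines: summed, the 8 markers were at 1772 to 1880 FPKM in shDCLK1 cells with LPS and 903 to 920 FPKM in control cells with LPS, and at 1586 to 1631 FPKM in untreated shDCLK1 cells and 959 to 960.3 FPKM in untreated control cells. Most of that gap was Lyz2, at 1013, 928 and 958 FPKM in shDCLK1 cells and 201, 207 and 211 FPKM in control cells with LPS, and at 649.95, 644 and 632 FPKM in shDCLK1 cells and 96.1, 94.5 and 101 FPKM in control cells untreated. The other markers went both ways. With LPS, Csf1r had 65.4, 63.7 and 65.6 FPKM in shDCLK1 cells against 15.6, 16.2 and 15.5 FPKM in control cells. Cd68 had 333, 329 and 334 FPKM against 223, 229 and 226 FPKM in control cells. Adgre1 was also higher in shDCLK1 cells with LPS, but lower untreated. Itgam had 41.6, 40.1 and 40.03 FPKM with LPS against 47.7, 48.8 and 45.8 FPKM in control cells. Untreated, Itgam was higher in shDCLK1 cells, at 53.3, 56.8 and 56.5 FPKM against 36.1, 34.6 and 35.6 FPKM. Ptprc with LPS had 70.1, 67.7 and 71.9 FPKM against 82.1, 84.8 and 83 FPKM in control cells. The markers' part in the result was not tested.

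**Figure D5:**
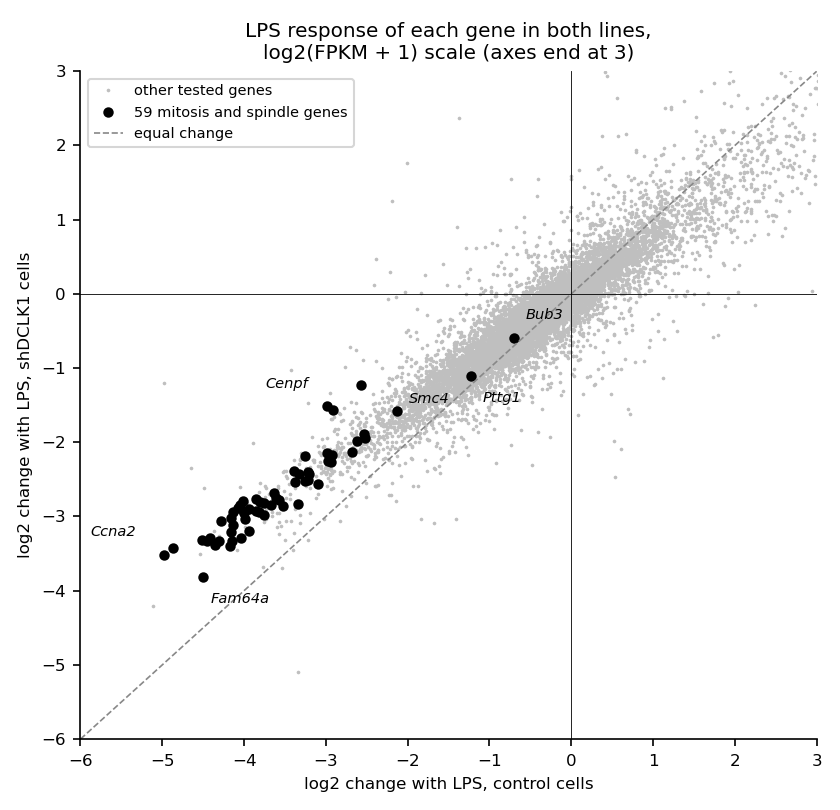
Change with LPS on the log2(FPKM + 1) scale in shDCLK1 cells (vertical) against control cells (horizontal) for the 59 members (black) and the other tested genes (grey), with the line of equal change dashed and axes ending at 3. The members lie in the lower left above the dashed line, and Bub3 and Pttg1 close to it.

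Genes of the same pathways that are not members were read from lists drawn up by function, with earlier results of these data known. Of 41 other mitotic genes, 41 were lower with LPS in each line, 25 were lower and 0 higher in untreated shDCLK1 cells, and 36 were higher and 0 lower in shDCLK1 cells with LPS. Among all tested genes 23.6% were lower in shDCLK1 than in control cells untreated, and 34.3% were higher with LPS. Cep55, an abscission protein, had 3.57, 3 and 3.11 FPKM with LPS in shDCLK1 cells, against 0.9, 0.93 and 0.81 FPKM in control cells, and Cdca3, which triggers mitotic entry, had 2.75, 3.27 and 2.8 FPKM in shDCLK1 cells, against 1.01, 0.79 and 1.03 FPKM in control cells. Their interactions, 1.26 (SE 0.0745, adjusted p = 5.30e-08) and 1.19 (SE 0.0939, adjusted p = 6.68e-07), lay within the range of the members. The 28 remaining centromere and kinetochore genes were less uniform, with 25 lower and 2 higher with LPS in shDCLK1 cells, 24 lower and 1 higher in control cells, and an interaction above 0 in 19 and below 0 in none. Casc5, the kinetochore scaffold KNL1, and Zwilch had the largest values, 1.25 (SE 0.178, adjusted p = 0.000107) and 1.09 (SE 0.0693, adjusted p = 1.02e-07). The first untreated library was the lowest of its group for Casc5 in both lines. Casc5 had 6.24, 9.76 and 7.99 FPKM in untreated shDCLK1 cells and 10.2, 13.8 and 12.7 FPKM in untreated control cells. Its value without the first libraries is not given. The anaphase-promoting complex and cohesin had smaller median changes, a difference from the members that was not tested. Of 16 genes of the anaphase-promoting complex and its regulators 13 were lower and 2 higher with LPS in shDCLK1 cells, 14 lower and 1 higher in control cells, with median changes of -0.47 and -0.58 and an interaction above 0 called in 6. Over all tested genes 59.7% were lower with LPS in shDCLK1 cells and 62.1% in control cells, and 32.6% had an interaction above 0, so the interaction count is near the share among all genes. Its inhibitor Fbxo5 (Emi1) was the exception, with 1.75, 2.27 and 1.88 FPKM with LPS in shDCLK1 cells against 0.45, 0.42 and 0.54 FPKM in control cells and an interaction of 1.17 (SE 0.0887, adjusted p = 4.86e-07). The subunit Cdc23 came next with 0.38 (SE 0.0684, adjusted p = 0.000658). Of 10 cohesin genes 7 were lower and 1 higher with LPS in each line, and 4 had an interaction above 0, counts near the shares over all tested genes. The largest interactions were 0.30 for Pds5b (adjusted p = 0.00956) and 0.29 for Smc1a (adjusted p = 0.000596).

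Foxm1, Mybl2 and E2f1, transcription factors that act on cell cycle promoters, were also lower with LPS in both lines, and with LPS higher in shDCLK1 than in control cells. Foxm1 had 5.25, 5.11 and 5.48 FPKM with LPS and 40.4, 40.1 and 42.1 FPKM untreated in shDCLK1 cells, and 2.62, 2.26 and 2.4 FPKM with LPS and 44.9, 45.4 and 43.9 FPKM untreated in control cells. Mybl2 (B-MYB) had 4.53, 4.48 and 4.43 FPKM with LPS and 40.1, 37.4 and 39.95 FPKM untreated in shDCLK1 cells, and 1.93, 2.1 and 2.31 FPKM with LPS and 45.9, 47 and 45.8 FPKM untreated in control cells. E2f1 had 5.46, 5.73 and 5.57 FPKM with LPS and 28.6, 28.3 and 27.7 FPKM untreated in shDCLK1 cells, and 2.25, 2.97 and 2.46 FPKM with LPS and 27.7, 31.1 and 27.7 FPKM untreated in control cells. The LPS groups of all 3 were higher in shDCLK1 than in control cells without overlap, and the interactions were 1.00 (SE 0.06, adjusted p = 5.81e-08) for Foxm1, 1.05 (SE 0.0636, adjusted p = 6.32e-08) for Mybl2 and 0.92 (SE 0.0934, adjusted p = 5.84e-06) for E2f1. E2f8, a repressor of the E2F family, had an interaction of 1.04 (SE 0.0901, adjusted p = 1.61e-06). Rbl2 (p130), the pocket protein of the DREAM repressor, also fell with LPS, to 2.14, 1.74 and 2.06 FPKM against 6.56, 6.54 and 6.9 FPKM untreated in shDCLK1 cells and 1.23, 1.37 and 1.3 FPKM against 7.45, 7.04 and 6.53 FPKM untreated in control cells. Cdkn1a (p21), the Cdk inhibitor, moved the other way: it had 379, 402 and 389.6 FPKM with LPS and 203, 192 and 188 FPKM untreated in shDCLK1 cells, and 378, 399 and 385 FPKM with LPS and 129, 129.8 and 132 FPKM untreated in control cells. It was higher in untreated shDCLK1 cells by 0.57 log2 units (SE 0.0346, adjusted p = 5.56e-08) and was not called with LPS (0.01, adjusted p = 0.826). Of 25 tested genes in this list of regulators, 17 had an interaction above 0 and 1, Cdkn1a, below 0 (-0.56, SE 0.049, adjusted p = 1.59e-06). Among all tested genes 32.6% had an interaction above 0 and 16.9% below. With LPS 59.7% of all tested genes were lower in shDCLK1 cells and 62.1% in control cells. Of 32 DNA replication and S phase genes, 32 were lower with LPS in each line and 31 had an interaction above 0, with a median of 0.85, led by the helicase subunit Mcm7 (1.46, SE 0.0401, adjusted p = 8.72e-11) and the ligase Lig1 (1.15, SE 0.0499, adjusted p = 3.51e-09).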

How the data were processed

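Poly(A) RNA of 12 libraries was sequenced, per the labels' protocols. The authors deposited FPKM for each gene, rounded to 2 decimals, in a single table, of which 1 column without a name was left out. StringTie 1.3.0, HISAT2 2.0 and Bowtie 0.12.2 are named in the submitters' processing notes, with mm8 and mm9 as builds and with no role for any of them. The annotation, filters and use of strand are not given in the sources used here, and neither are counts, so no interval for counting error is given. How reads shared between close gene copies were divided is not known.

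A gene was tested if 3 or more libraries reached 1 FPKM (11052 of 18190). With limma 3.58.1 in R 4.3.3, log2(FPKM + 1) was modelled by the 4 group means, with all 12 libraries in the fit and variances moderated towards a trend on the mean. The log2 scale with a pseudocount of 1 understates changes of low genes. P-values are two-sided and adjusted by the Benjamini-Hochberg method over all tested genes in each of 5 comparisons, with 0.05 as the threshold for a call. Levels between genes are compared in FPKM, which is per length. Figures were drawn with Python 3.11.15 and matplotlib 3.10.9. Promoter windows are RefSeq's for GRCm38.p6 and transcript lengths are from GENCODE's annotation of GRCm38, matched by gene.

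Members and lists were chosen with earlier results of these data known. Values in every library are given for the most abundant member of each role (mean over 12 libraries) and the 3 lowest and 3 highest in each comparison. From each other list the 2 genes with the largest interaction are named, and Foxm1, Mybl2, E2f1, Rbl2 and Cdkn1a. Alternatives were the pseudocount, filters, scaling, the trend, a replicate block, the groups in the fit and leaving out each library.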

Additional observations from a re-analysis of the deposited data

Results flagged for a closer look

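The change with LPS differed between the lines by the interaction test for 57 of 59 members, all in the direction of a smaller fall in shDCLK1 cells. Of the genes given in every library, Cenpf (1.47), Ccna2 (1.47), Birc5 (1.44) and Kif4 (0.51) are listed for it, the first 3 with the largest interactions on the log2(FPKM + 1) scale and Kif4 with the smallest among called members. For Cenpf the first library of each untreated group was the lowest, and its 3 libraries with LPS were at 1.24, 1.43 and 1.44 FPKM in shDCLK1 cells and 0.54, 0.43 and 0.39 FPKM in control cells.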

How the results depend on the processing

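The counts of 59 lower members with LPS in each line, and of 0 higher, held under each of the 22 alternatives, as did each member's call. The interaction was called above 0 for 57 to 58 members and the difference with LPS for 54 to 58, the lowest after quantile normalization. No result reversed. The difference in untreated cells depended most on the processing: 33 members were lower with the settings used, 24 with a pseudocount of 0.1, 29 with equal FPKM sums, 30 after median-of-ratios scaling, 35 after quantile normalization and 42 with only the 2 groups in the fit. Leaving out 1 library gave 26 to 37, and leaving out the first library of all groups, an alternative chosen after seeing the data, gave 25. None of these counts moved by over 1.5 times, and the cause was not tested. Over all tested genes, libraries with the same replicate number did not deviate together (correlations of -0.107 to 0.0638). Such correlations cannot exclude a pairing that touches few genes. For Cenpf, Cenpe, Kif20b and Smc4 the first untreated library was the lowest of its group in both lines. A fit with the replicate number as a block gave 33 lower members as well. Levels near 1 FPKM with LPS rest on few fragments, and depth as counts is not known.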
